A study of Mus musculus with 2 samples.

Results

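The metastasis core was a set of 64 array spots in 1 Visium section of a metastatic mouse lung, and it was compared with 839 spots of the same section that lay far from it. A tumour score was taken for each spot over tissue with at least 1000 counts, as the mean of log1p (counts per 10000) of Myc, Csn3, Etv4, Mmp3 and AA467197. The 80 spots with the highest score were kept as core where at least 2 of their 6 array neighbours were also among the 80, which left 64. Far spots were more than 5 array steps from any core spot. The metastatic section held 1110 spots over tissue, of which 1104 had at least 1000 counts, and both sections of the series together held 2998. Another 201 spots lay at 1 to 5 steps from the core, and the 76 of these at 1 to 2 steps are called the ring.

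The metastatic lung came from a female Balb/c mouse of 6 to 8 weeks that received 1000000 4T1 cells in the mammary fat pad and was euthanized after 21 to 23 days. The other section was lung of a control mouse with no treatment (control lung), in which 1861 of 1888 spots had at least 1000 counts. Both were fresh-frozen, permeabilized for 18 minutes, and counted as unique molecules per gene and spot. Each condition had 1 section, so section, library and animal cannot be told apart, and spots of 1 section do not replicate a condition. A spot is a small region that holds several cells of different types, and fewer cells of a type cannot be told apart from less RNA per cell.

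4T1 is a mammary carcinoma line that spreads from the fat pad to the lung on its own, and all tumour cells of the section came from this line. A metastasis of this kind is a nodule of dividing tumour cells, with vessels and immune cells, that takes the place of alveoli, the air sacs lined by alveolar type I (AT1) and type II (AT2) cells over a bed of capillaries. Growing tumour cells are known for making ribosomes, running glycolysis and secreting chemokines that draw in myeloid cells. Lung tissue at a distance keeps airway, alveolar, endothelial and blood cells.

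The core held 1363958 counts, with a median of 21333.5 per spot (4283 to 40335), and the far spots held 10766109, with a median of 10902 (1030 to 77512). The control lung held 20311043 (median of 9713). A level is the counts of a gene in all spots of a region per 10000 counts of that region (CP10k), and ratios of such levels are given with exact 95% intervals of the split of counts, which cover counting error only. Log2 ratios had 0.5 counts added on each side. The share of counts taken by 1 airway gene differed much between regions: Scgb1a1, the club cell secretory protein, made up 0.247% of the core, 23.2% of the far spots and 15.2% of the control lung. Ribosomal protein genes took 25% of the core and 8.0% of the far counts. Both enter the total by which each level was divided. The sections shared 858 spot barcodes, which are array positions.

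The core was chosen by the levels of the score genes, so their values are a description. Core scores ran from 0.579 to 1.42 with a median of 0.863, while 583 far spots (69.5%) scored 0. The lowest of the 80 spots scored 0.579 and 0.589, and the next spots below them 0.573 and 0.570. Summed levels in core, far and control lung were 2.97, 0.216 and 0.0364 CP10k for Myc, a transcription factor of growth, and 3.20, 0.0437 and 0.0364 for Mmp3, a matrix protease. Csn3, a milk casein, reached 0.726 CP10k in the core on 99 counts, against 3 counts in all far spots and 0 in the control lung. A single far spot, 14 steps from the core and with 2030 counts, scored 0.712 and was among the 80. No control spot reached the lowest core score, and the highest was at 0.471.

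The core lay in 3 groups of touching spots, with 60 spots in a large metastasis, 3 spots 2 steps from it, and 1 spot 18 steps away. The lone spot held 6521 counts. It and its 6 neighbours are called the small metastasis here (7 spots, 51741 counts, score from 0.119 to 0.725), a group formed after seeing the data. The name is a label only, and the 6 neighbours also belong to the ring. The score genes summed to 4.64 CP10k in these 7 spots, 10.2 in the large metastasis and 4.19 in the ring, with no count of Csn3 in the 7. AT2 genes stood at 130, 18.9 and 135 CP10k in the same order. Of the 64 core spots, 18 had all 6 neighbours in the core (interior) and 46 did not (edge). The edge spots include those at the border of the tissue, where no neighbour was measured.

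**Figure D1:**
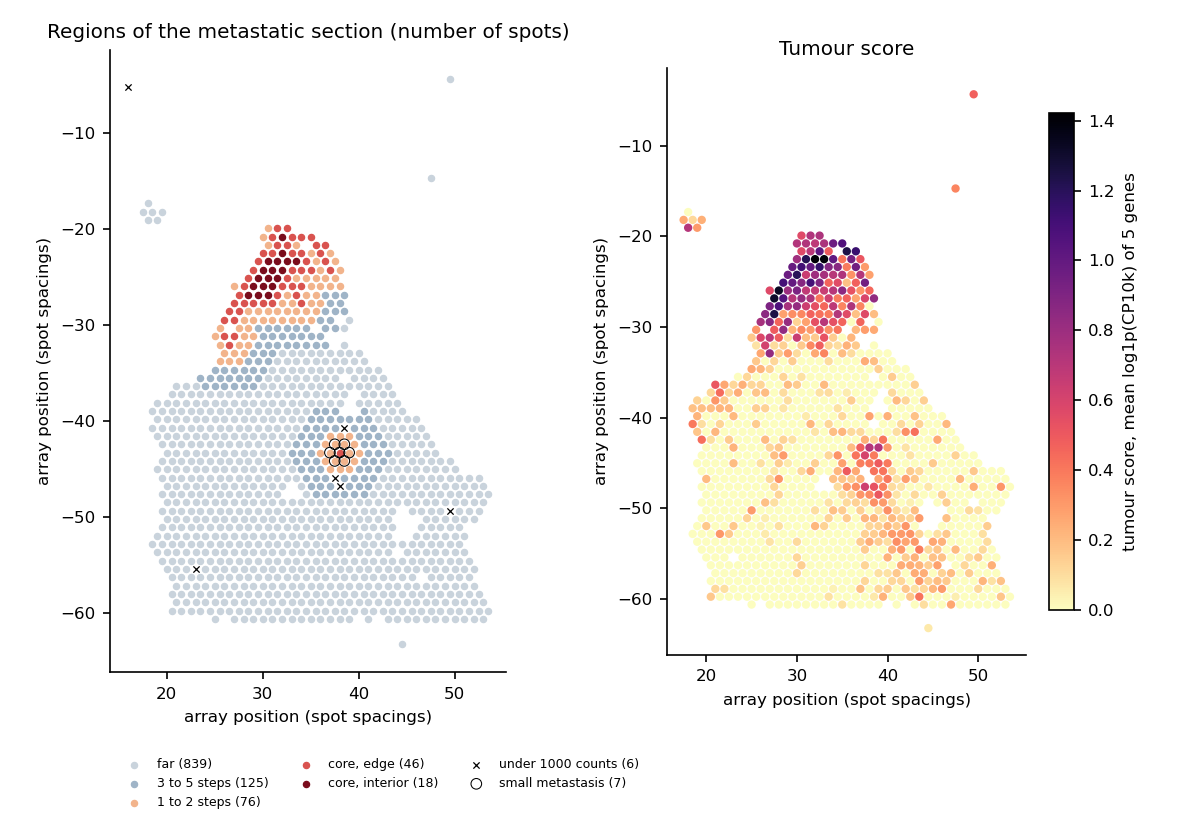
Position of the spots of the metastatic section, in spot spacings on both axes, coloured by region (left, number of spots in the key, open circles for the 7 spots of the small metastasis) and by tumour score (right). The 64 core spots form 1 block of 60, a neighbouring group of 3 and 1 spot apart, and spots with a high score surround the block.

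Over the 14275 genes outside the score with at least 10 counts in core and far together, 3149 (22.1%) were at least 2-fold higher in the core and 3376 (23.6%) at least 2-fold lower, with a median log2 ratio of 0.13. Of the calls, 48.3% were higher. This split depended on the library size, at 26.8% with 422 abundant genes (Scgb1a1, haemoglobin, mitochondrial, surfactant protein and immunoglobulin genes) left out of it, since they held 1.7% of the core and 31.4% of the far counts. That setting shifts each log2 ratio by -0.52. It was 36.5% with ribosomal protein genes left out as well, 38.2% with the Scgb1a1-rich far spots left out, 41.0% against the control lung (19.1% of genes higher and 27.5% lower) and 59.8% with a minimum of 1 count. All genes come from the spots that the score chose, and no test was made. Past 8-fold, 334 genes were higher and 956 lower, and 1037 of the tested genes had no count in the core.

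Genes of cell division were higher in the core without exception among those listed. All 25 mitosis genes and all 25 S phase genes were past 2-fold higher, with median log2 ratios of 3.42 and 2.68. Their medians ran from 2.89 to 3.65 and from 2.16 to 2.79 over 26 alternative settings. The mitosis genes summed to 14.6 CP10k in the core, 12.3 in the ring, 1.42 in the far spots and 1.69 in the control lung, a core over far ratio of 10.3 (9.64 to 11.0). Core spots ran from 2.08 to 26.2 CP10k (median of 12.3) and far spots from 0 to 38.5 (median of 1.11), so the ranges overlapped although the medians lay far apart.

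Top2a, the topoisomerase that untangles chromosomes before division, stood at 1.45 CP10k in the core and 0.0920 in the far spots, a ratio of 15.8 (12.3 to 20.3). Core spots ran from 0 to 3.19 with a median of 1.38, and 53 of 64 had a count, against 84 of 839 far spots. Cdk1, the kinase that starts mitosis, had a ratio of 13.9 (10.7 to 18.0), and Aurkb, a kinase of chromosome segregation, 18.1 (11.4 to 29.6). Mki67, the marker of dividing cells, stood at 1.11 CP10k in the core and 0.0938 in the far spots, a ratio of 11.9 (9.18 to 15.4). It was found in 52 core and 89 far spots. Among S phase genes, the ratio was 15.7 for Tk1 (thymidine kinase), 14.6 for Rrm2 (ribonucleotide reductase) and 4.56 for Pcna, the sliding clamp of DNA polymerase (3.99 to 5.21). Division genes outside the lists were among the 15 genes named for the highest ratios: Pclaf, a partner of Pcna, at 20.4 (14.3 to 29.7) and Pbk, a mitotic kinase, at 20 (12.95 to 31.6).

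The promoters of Top2a and Cdk1 are shown because promoters of division genes are known for CCAAT boxes and for the CHR element, whose letters are TTTGAA. Both were picked, in order of ratio, from mitosis genes whose promoter held both motifs. Their windows thus do not stand for the whole list. The RefSeq sequences are the 250 bases before the transcript start on GRCm38.p6 (mm10), read 5′ to 3′ on the gene's strand. Both genes lie on the minus strand, Top2a at chr11:99024190-99024439 and Cdk1 at chr10:69352913-69353162. Capitals mark CCAAT and TTTGAA on either strand, so that ATTGG and TTCAAA are marked as well, and no marked motif overlaps another in these windows.
Top2a: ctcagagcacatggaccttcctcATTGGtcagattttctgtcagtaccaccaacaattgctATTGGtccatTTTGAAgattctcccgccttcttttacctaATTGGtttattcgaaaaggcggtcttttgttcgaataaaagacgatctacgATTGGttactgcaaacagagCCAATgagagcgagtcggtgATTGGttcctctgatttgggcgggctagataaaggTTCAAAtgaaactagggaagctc
Cdk1: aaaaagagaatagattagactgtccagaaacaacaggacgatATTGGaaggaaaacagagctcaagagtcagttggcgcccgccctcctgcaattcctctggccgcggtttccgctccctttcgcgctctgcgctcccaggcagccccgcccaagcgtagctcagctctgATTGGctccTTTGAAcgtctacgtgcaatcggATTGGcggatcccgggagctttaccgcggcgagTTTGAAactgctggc
In Top2a the marked motifs start at -227, -189, -179, -149, -98, -78, -58 and -23 from the transcript start, and in Cdk1 at -208, -80, -71, -48 and -15. RefSeq promoters were matched for 21 of the 25 mitosis genes, 22 promoters in all. CCAAT was in 20 of them (90.9%), against 33.8% of all 32851 promoters of the same length, and TTTGAA in 8 (36.4%), against 16%. The E-box CACGTG, which Myc is known to bind, was in 1 of them (4.5%), against 6.0% of all. Of the 25 nucleolar and ribosome assembly genes, 20 matched with 23 promoters, and CACGTG was in 3 of these (13%), CCAAT in 4 (17.4%) and TTTGAA in 2 (8.7%). A match is a description of letters and not a binding site.

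Brakes on the cell cycle and p53 targets were mixed, with 7 of 17 genes past 2-fold higher and 4 lower (median log2 ratio of 0.79), beside 22.1% and 23.6% of all genes. Cdkn1a, the p21 inhibitor of cyclin kinases, was 3.02-fold higher (2.44 to 3.71), and Eda2r, a death receptor of the p53 response, 29.3-fold on 26 counts against 7 (12.4 to 80). Cdkn1c, the p57 inhibitor, was the opposite with 1 count in the core, 0.00733 CP10k against 0.382 in the far spots.

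Genes for making ribosomes and proteins were higher together. Of 25 nucleolar and ribosome assembly genes, 23 were past 2-fold higher (median log2 ratio of 1.95, from 1.43 to 2.07 over the alternatives). Of 76 cytosolic ribosomal protein genes tested, 75 were (median of 1.61), and of 17 translation factors and chaperones 15 were (median of 1.52). Npm1, the nucleolar chaperone nucleophosmin, stood at 11.3 CP10k in the core and 1.32 in the far spots, a ratio of 8.57 (7.97 to 9.21). Core spots ran from 0 to 17.9 with a median of 11.0, and the highest far spot was at 8.76, under the core median. The ratio was 7.51 for Srm, the spermidine synthase (6.35 to 8.89), and 6.93 for Hspe1, a mitochondrial chaperonin. Nme1, a nucleoside diphosphate kinase, stood at 4.22 and 1.03 CP10k. In the small metastasis the ribosomal protein genes had a median log2 ratio over far of 0.90, under 2-fold.

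Of 17 glycolysis genes, 13 were past 2-fold higher and 1 was lower, with a median log2 ratio of 1.78. The list summed to 81.6 CP10k in the core, 58.8 in the ring, 22.6 in the far spots and 24.04 in the control lung. Pkm, the pyruvate kinase, had a ratio of 4.96 (4.70 to 5.23), Gapdh 4.67 (4.44 to 4.91), and Ldha, the lactate dehydrogenase, 3.74 (3.52 to 3.97). Pkm had a count in all 64 core spots, at 3.19 to 34.9 CP10k with a median of 16.1, against a far median of 3.12. Slc16a1, a lactate transporter, was 8.21-fold higher (6.63 to 10.2). Pfkfb3, which makes an activator of glycolysis, went the other way at 0.242 CP10k in the core and 0.553 in the far spots. In the small metastasis the list's median log2 ratio was 0.93.

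Serine synthesis was higher through its first enzymes. Psat1, the phosphoserine aminotransferase, was also among those 15, at 16.6 (13.1 to 21.2). It stood at 1.59 CP10k in the core, 0.9496 in the ring, 0.0957 in the far spots and 0.0571 in the control lung, and 59 of 64 core spots had a count. Phgdh, the enzyme before it, had a ratio of 10.0 (7.94 to 12.7). Of 14 serine, glycine and one-carbon genes, 7 were past 2-fold higher and 1 was lower (median of 0.86), among them the mitochondrial Shmt2 (1.17 and 0.220 CP10k) and Mthfd2 (0.440 and 0.0771).

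Other metabolic lists were mixed, apart from nuclear respiratory chain and mitochondrially encoded genes. Of 18 hypoxia response genes, 4 were past 2-fold higher and 4 lower (median of 0.05), near the shares over all genes (22.1% and 23.6%). Egln3, an oxygen-sensing hydroxylase, was 8.84-fold higher, while the summed level of the list was 5.24 CP10k in the core and 11.9 in the far spots, mostly through Selenbp1, a selenium-binding protein (0.411 and 6.94). Of 21 fatty acid and glycerolipid synthesis genes, 1 was higher and 5 were lower (median of -0.25). Fasn, the fatty acid synthase, stood at 2.36 CP10k in the core and 1.64 in the far spots, 1.44-fold (1.28 to 1.63). This difference is about as large as the shift of -0.52 in log2 under the library size that omits abundant genes. Scd1, a desaturase, stood at 0.975 and 3.77. Cholesterol synthesis genes numbered 2 higher and 1 lower of 17, and those of fatty acid uptake, storage and oxidation 2 higher and 3 lower of 17. Cd36, a fatty acid transporter, was at 0.660 CP10k in the core and 6.84 in the far spots. Nuclear genes of the respiratory chain numbered 34 higher and 2 lower of 78 (median of 0.95, or 0.43 under the library size that omits abundant genes). Mitochondrially encoded genes numbered 0 higher and 6 lower of 12 (median of -0.73).

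The labelled cell type, a mammary gland tumour line, was checked against epithelial and mammary genes. Of 20 simple epithelial keratin and junction genes tested, none was past 2-fold higher and 18 were lower (median log2 ratio of -2.88). Krt8 and Krt18, keratins of simple epithelium and of 4T1 cells, were above the far level by less than 2-fold, at 1.75 (1.55 to 1.97) and 1.95 (1.67 to 2.27). The library size that omits abundant genes shifts both log2 ratios by -0.52. Cdh1, E-cadherin, was at 0.0806 CP10k in the core and 0.951 in the far spots, and Epcam, an epithelial adhesion protein, at 0.0733 and 0.534. Esrp2, an epithelial splicing factor, had no count in the core. Lung epithelium also makes these genes, and the far spots hold it. Of 20 mammary gland genes only 8 had enough counts to be tested, and Csn2, Wap, Lalba and Sox10 were among those that did not. Of the 8, 2 were past 2-fold higher and 2 lower (median of -0.36), near the shares over all genes (22.1% and 23.6%). The list thus did not move one way, although Areg, an EGF receptor ligand of the mammary duct, was 15.3-fold higher (10.1 to 23.6). Basal keratins Krt5 and Krt14 were not tested for want of counts.

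Mesenchymal genes were mixed. Of 15 such genes, 7 were past 2-fold higher and 3 lower (median of 0.48, or -0.04 under the library size that omits abundant genes). Over all genes the shares were 22.1% and 23.6%. S100a4, a calcium-binding protein linked to motility, stood at 19.7 CP10k in the core and 1.44 in the far spots, a ratio of 13.7 (12.9 to 14.6), with core spots at 3.16 to 38.4 and a median of 18.5. Lgals1, galectin-1, had a ratio of 10.9 (10.4 to 11.4). Twist1, a transcription factor of mesenchyme, was 14.98-fold higher (10.0 to 22.7) and had 0.00394 CP10k in the control lung. Snai2, another such factor, had no count in the core, and Snai1 and Zeb1 were at 0.103 and 0.198 CP10k in the core against 0.203 and 0.387 in the far spots, neither past 2-fold.

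Fosl1, a target of ERK signalling, had 74 counts in the core and 17 in the far spots, a ratio of 34.4 (20.1 to 62.1), and none in the control lung. It was found in 32 core and 16 far spots. The ERK list as a whole, Fosl1 included, did not move one way, with 3 of 14 genes past 2-fold higher and 4 lower (median of -0.21). These are near the shares over all genes (22.1% and 23.6%). Dusp6, a feedback phosphatase, stood at 1.34 and 0.738 CP10k, and Spry1, a feedback inhibitor, at 0.0953 and 0.579.

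The 15 genes named for the highest ratios, among those with at least 100 counts and the same direction in the large and small metastasis, were of several kinds. Col9a1, a chain of the cartilage collagen IX, led them with 101 counts in the core and 24 in the far spots, a ratio of 33.2 (21.1 to 54.2), and none in the control lung. Its core spots ran from 0 to 3.27 CP10k (median of 0.539), and 42 of 64 had a count. Fbp2, a fructose bisphosphatase, was 24.9-fold higher (17.6 to 35.9), Pla1a, a phospholipase, 23.7-fold (16.6 to 34.3), and Tpbg, the 5T4 oncofetal antigen, 18.0-fold (12.2 to 27.0). Ang5, a ribonuclease with close paralogs whose reads may be shared, was 18.7-fold higher. Gm41555, 3300005D01Rik and Ydjc followed at 17.6-, 17.1- and 16.7-fold, and Gm41555 had no count in the control lung.

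**Figure D2:**
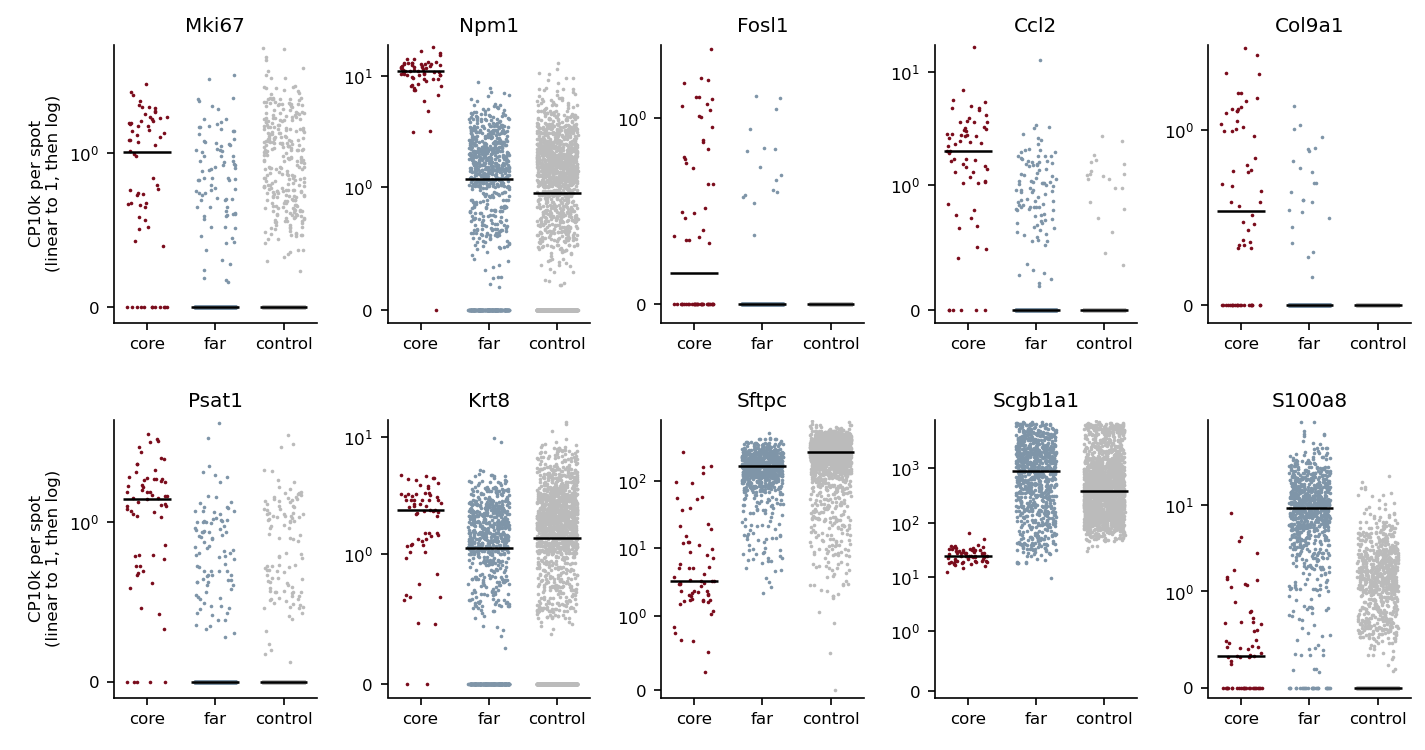
Level of 10 genes in each spot of core, far and control lung, in CP10k on an axis that is linear to 1 and logarithmic above, with a line at the median of the spots. Npm1 has a core median of 11.0 and Scgb1a1 core spots lie between 12.2 and 62.9, whereas most far spots have no count of Fosl1, Col9a1 or Mki67.

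Proteases of the matrix and the plasminogen system numbered 9 higher and 2 lower of 17 (median log2 ratio of 1.17, and 0.65 under the library size that omits abundant genes). Mmp10, stromelysin 2, had 22 counts in the core and 1 in the far spots, a ratio of 174 (28.1 to 7167). Plau, the urokinase, was 16.2-fold higher (9.01 to 30.3). Ctsl, a lysosomal protease, had a count in all 64 core spots and a ratio of 5.22 (4.91 to 5.56). Among their inhibitors Timp1 was 9.79-fold higher (8.31 to 11.5), while Timp3, which binds to lung matrix, was at 0.469 CP10k in the core and 5.90 in the far spots.

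Chemokines for monocytes were among the highest ratios. Ccl7 had a ratio of 30.2 (22.5 to 41.1) and Ccl2 one of 20.7 (16.9 to 25.4). Ccl2 stood at 2.60 CP10k in the core, 2.22 in the ring, 0.125 in the far spots and 0.0113 in the control lung. Core spots ran from 0 to 16.5 with a median of 2.01, and 58 of 64 had a count. Of 24 tumour cytokine and growth factor genes tested, 11 were past 2-fold higher and 6 lower (median of 0.05), beside 22.1% and 23.6% of all genes. Il23a, an interleukin subunit, had 15 counts in the core and 1 in the far spots, and Csf3, the neutrophil growth factor G-CSF, 9 and 2. Mif, a macrophage cytokine, was 7.08-fold higher (6.58 to 7.61). Il1b, an inflammatory cytokine, was lower at 0.205 and 0.832 CP10k, and so was Vegfa, the vessel growth factor that AT1 cells also make, at 0.469 and 3.63.

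Monocyte and macrophage genes were past 2-fold higher for 14 of 18 and lower for 1, with a median log2 ratio of 1.64. Their summed level was 52.2 CP10k in the core and 45.5 in the far spots. Lyz2, lysozyme, the largest part of that sum, was at 21.8 and 27.8 CP10k, and Apoe, apolipoprotein E, at 3.38 and 7.82. Lyz2 is also made by AT2 cells. Fcgr1, the high-affinity IgG receptor, was 11.0-fold higher (7.82 to 15.5), and C1qc, a complement subunit of tissue macrophages, 4.13-fold (3.70 to 4.60). The list reached 97.8 CP10k in the ring and 136 in the small metastasis, both above the core, and 6 of the 7 spots of the latter are also ring spots.

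Tumour macrophage genes numbered 9 higher and 1 lower of 16 (median of 1.25, or 0.73 under the library size that omits abundant genes). Spp1, osteopontin, stood at 9.27 CP10k in the core and 1.90 in the far spots, a ratio of 4.89 (4.56 to 5.25). It was 3.15 in the ring, and all 64 core spots had a count. Folr2, a folate receptor of resident macrophages, was 8.71-fold higher than far and 4.64-fold higher than the ring on 64 core counts. Over the ring, 274 of 11372 genes (2.41%) were past 2-fold higher in the core and 1448 (12.7%) lower. Arg1, an arginase, had a ratio of 5.69 (4.44 to 7.27), but 33 core spots held its counts and the highest was at 10.4 CP10k. Alveolar macrophage genes were lower, 9 of 15 against 2 higher (median of -1.69, or -0.69 with absent genes at their bound), with Marco, a scavenger receptor, as 1 of the 2 at 1.01 and 0.202 CP10k, on counts in 20 core spots. In the small metastasis this list turned to a median of 1.26, where the median of all genes was 0.99. The list held only 27 counts there, and its summed level was 1.06 times that of far (0.696 to 1.54).

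Interferon-gamma response genes were past 2-fold higher for 15 of 16, with a median log2 ratio of 2.01 (1.28 to 2.71 over the alternatives). They summed to 20 CP10k in the core, 29.6 in the ring, 37.1 in the small metastasis, 5.71 in the far spots and 3.54 in the control lung. Cxcl10, a chemokine for T cells, had a ratio of 18.9 (15.6 to 23.0), with a core median of 0.783 CP10k and 1 spot at 38.4. Its log2 ratio of 4.24 became 2.63 when core spots needed 4 neighbours. Cxcl9, a related chemokine, was 6.89-fold higher (5.89 to 8.07) and stood at 4.38 in the ring against 2.23 in the core. Irf1, a transcription factor of the response, was the gene that did not pass, at 1.298 and 1.26. Of 15 type I interferon genes, 11 were higher and 1 was lower (median of 1.68). Bst2, tetherin, was 5.62-fold higher and Isg15, a ubiquitin-like protein, 5.40-fold.

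Genes of antigen presentation to CD8 T cells (MHC class I) were past 2-fold higher for 8 of 16 and lower for none, with a median of 1.06 that went to 0.54 under the library size that omits abundant genes. Nlrc5, their transcriptional activator, was 6.19-fold higher, whereas H2-D1, a class I chain, stood at 37.1 and 26.2 CP10k. Of 11 MHC class II genes only Ctss, a protease that trims the invariant chain, was past 2-fold, at 3.66-fold. Cd74, the invariant chain, was at 17.4 CP10k in the core and 13.3 in the far spots but at 40.1 in the ring and 79.6 in the small metastasis. Of the 11 class II genes, 10 were past 2-fold lower in the core than in the ring, beside 12.7% of all genes.

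T and NK cell genes numbered 4 higher and 0 lower of 22 (median of 0.54), beside 22.1% and 23.6% of all genes. Against the ring 17 were past 2-fold lower, beside 12.7% of all genes. They summed to 3.84 CP10k in the core, 10.7 in the ring, 17.4 in the small metastasis and 3.08 in the far spots. Gzmb, a granule protease of killer cells, stood at 0.139 and 0.0316, while Cd3e, a T cell receptor subunit, was at 0.0660 and 0.1003, not past 2-fold. Dendritic cell genes numbered 6 higher and 2 lower of 12 (median of 0.83).

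Counts of B and plasma cell genes were concentrated in a few spots. Of 12 genes, 6 were past 2-fold higher and none lower (median of 1.03, or 0.51 under the library size that omits abundant genes). The list had a core median of 3.92 CP10k per spot and 1 spot at 189. Ighg2b, an IgG heavy chain, had a ratio of 16.3 (12.7 to 20.9), yet 170 of its 204 core counts came from that 1 spot at the edge and 34 from the other 63. Its log2 ratio was 4.02 with that spot and 1.48 without it, and the small metastasis held no count of it. Igkc, the kappa light chain, had 5.09 times the far level, with a core median of 1.33 and 1 spot at 123 CP10k.

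Complement and acute phase genes numbered 8 higher and 2 lower of 15 (median of 1.03, and 0.51 under the library size that omits abundant genes). Saa3, a serum amyloid, stood at 21.3 CP10k in the core, 13.6 in the ring, 1.45 in the far spots and 0.0537 in the control lung, a core over far ratio of 14.7 (13.8 to 15.6). Core spots ran from 0 to 125 with a median of 9.99, and the highest far spot was at 180 CP10k. In the small metastasis it was at 0.387. Hp, haptoglobin, was lower at 0.484 and 12.9.

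Neutrophil genes were past 2-fold lower for 10 of 15 and higher for 1 (median of -2.52). They summed to 2.71 CP10k in the core, 8.83 in the ring, 27.4 in the far spots and 4.12 in the control lung. S100a8, a calprotectin subunit, was at 0.601 CP10k in the core, 9.85 in the far spots and 0.788 in the control lung, a core over far ratio of 0.0610 (0.0485 to 0.0758). Retnlg, a resistin-like protein of neutrophils, had 645 counts in the far spots and none in the core, at least 27.2-fold lower at a floor of 3 counts over the core. Against the control lung in place of far, the list's median was -0.31. Far and control lung differed past 2-fold in 2.24% of genes higher and 6.61% lower in the far spots.

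Most lists of lung parenchyma genes were lower in the core. Of 15 AT2 genes 14 were past 2-fold lower (median log2 ratio of -2.97), of 16 AT1 genes 15 (median of -3.66), of 17 general endothelial genes all 17 (median of -4.02) and of 14 lung capillary genes all 14 (median of -4.04). Alveolar fibroblast genes were lower for 12 of 14 and smooth muscle and pericyte genes for 14 of 15. Adventitial fibroblast genes were mixed, with 2 higher and 4 lower of 10 (median of -0.57), and so were alveolar transitional epithelial genes, with 3 higher and 4 lower of 11 (median of -0.21). Over all genes the shares were 22.1% higher and 23.6% lower. All 7 red blood cell genes and all 13 ciliated cell genes were lower, with medians of -4.74 and -5.05 (-4.31 with genes absent from the core at their bound).

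Sftpc, the surfactant protein of AT2 cells, stood at 15.7 CP10k in the core, 89.6 in the ring, 145 in the far spots and 242 in the control lung, a core over far ratio of 0.108 (0.104 to 0.113). Core spots ran from 0.248 to 271 with a median of 3.29. Its interior level was 2.66 CP10k and its edge level 21.4. Ager, a receptor of AT1 cells, was at 1.23 and 17.6, Pecam1, an endothelial adhesion protein, at 0.257 and 4.16, and Hbb-bs, a beta globin, at 9.12 and 293. Inmt, a methyltransferase of alveolar fibroblasts, was at 1.28 and 31.6. The AT2 median was -4.29 where core spots needed 4 neighbours in the core, and -0.40 in the small metastasis.

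Airway genes were lower as well. Of 13 club and secretory genes 12 were past 2-fold lower (median of -4.88, or -3.78 with absent genes at their bound). Scgb1a1 was at 24.7 CP10k in the core, 40.4 in the ring and 2322 in the far spots, a ratio of 0.0106 (0.0103 to 0.0110). All 64 core spots held it, between 12.2 and 62.9 CP10k, and its level was 27.1 in the interior and 23.6 at the edge. Scgb3a2, another secretoglobin, was at 0.213 and 21.6. Tmem212, a gene of ciliated cells, had no count in the core and was at least 25.3-fold lower, and Gpx2, a glutathione peroxidase, at least 19.0-fold.

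Others among the 15 lowest were Actc1, the cardiac actin of pulmonary vein muscle, with no count in the core (at least 21.6-fold lower), Cnn1, a calponin of smooth muscle (at least 14.4-fold), and Ccl21a, a chemokine of lymphatic vessels, with 2 counts in the core (ratio of 0.00762, 0.000922 to 0.0276). Cytl1, Slc6a2, Ccdc85a, Fgfbp1, Gm19935 and Rnf186 had no count in the core either, with bounds between 14.3- and 16.6-fold. Slc6a2 is the noradrenaline transporter. The symbol Ccl21a is shared between features, and the values given for it are of a single entry.

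Stroma and vessels of a tumour kind were not higher as lists. Cancer-associated fibroblast genes were lower for 8 of 10 tested and higher for none (median of -2.07), and tumour vessel genes lower for 11 of 15 and higher for none (median of -2.48). Of 21 fibrillar matrix genes, 4 were higher and 5 lower (median of 0.19), near the shares over all genes (22.1% and 23.6%). Col3a1, a collagen of loose stroma, was 4.85-fold higher (4.42 to 5.32), whereas Postn, periostin, was at 0.132 and 1.81 CP10k. Mesothelial genes, from the covering of the lung, numbered 5 higher and 2 lower of 9 (median of 1.02), and the median reversed to -0.26 with the Scgb1a1-rich far spots left out and to -0.76 against the control lung.

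**Figure D3:**
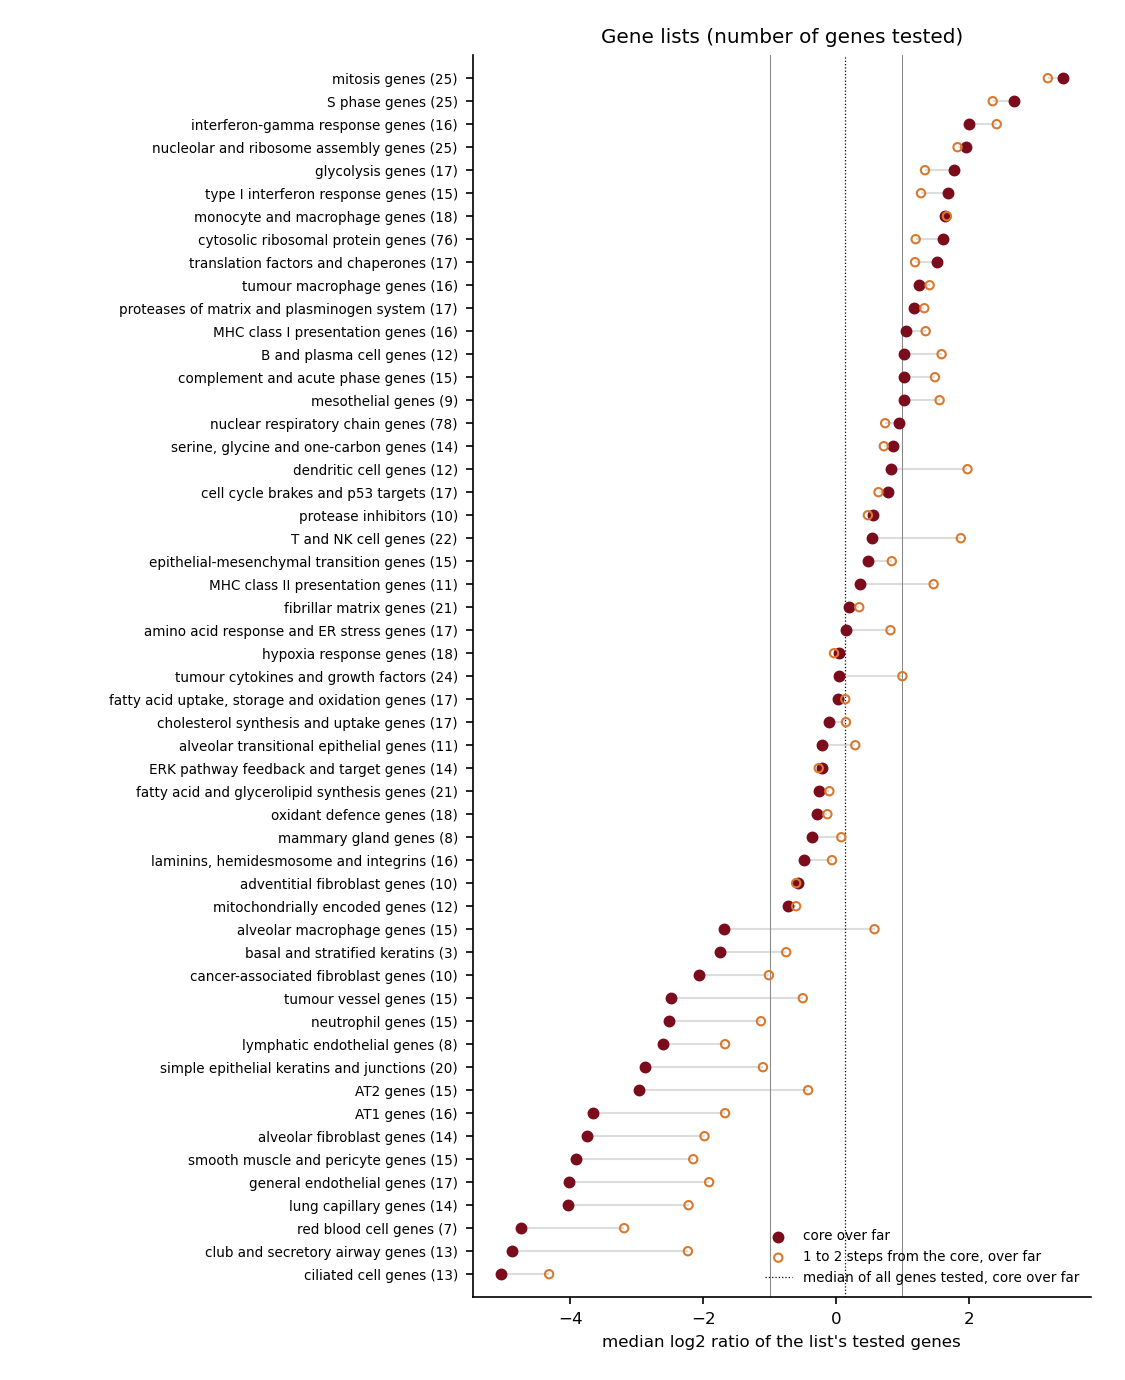
Median log2 ratio of each gene list (number of genes tested in brackets), as filled points for core over far and open points for the ring over far, with a dotted line at the median of all genes tested (0.13) and solid lines at 2-fold. Mitosis genes are highest at 3.42, ciliated cell genes lowest at -5.05, and for the MHC class II and T and NK cell lists the ring lies right of the core.

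Lists that peaked in the core could be told from lists that peaked beside it by distance. Mitosis genes went from 14.6 CP10k in the core to 12.5, 11.96, 7.18, 5.01 and 2.61 at 1, 2, 3, 4 and 5 steps and to 0.932 over 18 steps. Glycolysis genes ran from 81.6 through 63.0 at 1 step to 19.4 over 18 steps, and nucleolar genes from 43.5 through 34.8 to 7.60. Interferon-gamma response genes were instead highest at 1 step (31.2 against 20 in the core), and MHC class II genes at 2 steps (95.4 against 39.8), as were T and NK cell genes (12.4 against 3.84). The summed level of monocyte and macrophage genes was also highest at 2 steps (110 against 52.2), with Lyz2, which AT2 cells also make, as its largest part. Only 2 of those 18 genes were past 2-fold lower in the core than in the ring. Their median log2 ratio of core over ring was -0.24, beside -0.15 over all genes. AT2 genes stood at 25.1 CP10k in the core, 117 at 1 step, 162 at 2 steps and 217 at 3 steps. Lung capillary genes took longer, at 2.36 in the core, 10.8 at 2 steps and 40.6 at 5 steps. Red blood cell genes were highest in the farthest spots, going from 17.6 CP10k in the core to 191 at 5 steps and 808 over 18 steps.

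**Figure D4:**
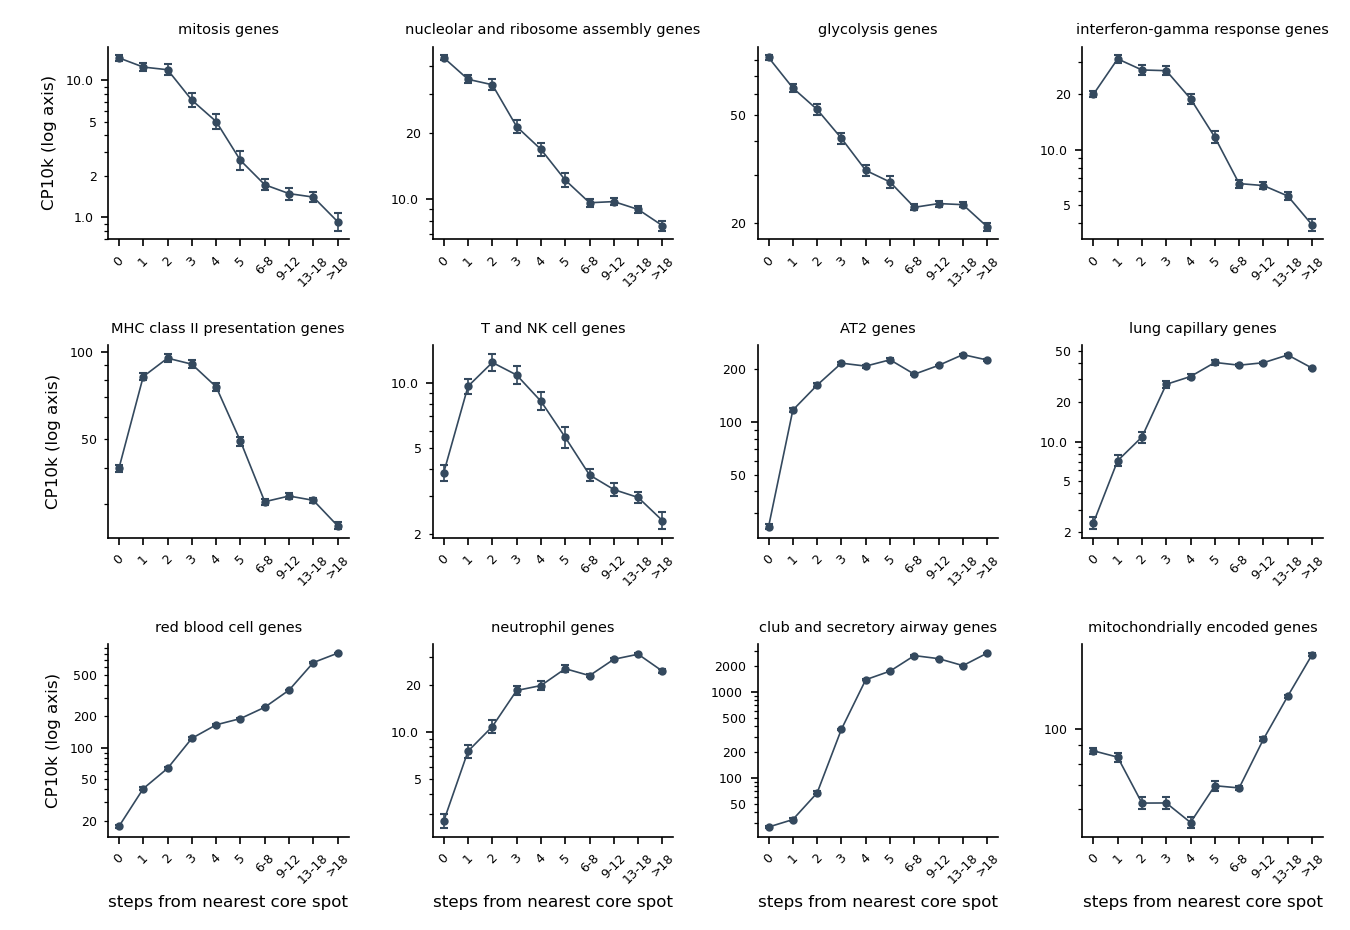
Summed level of 12 gene lists in CP10k (log axis) by steps from the nearest core spot, with exact Poisson intervals as bars. Mitosis, nucleolar and glycolysis genes fall away from step 0, interferon-gamma, MHC class II and T and NK cell genes are highest at 1 or 2 steps, and alveolar, capillary, red cell, neutrophil and club cell genes are lowest in the core.

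Most of what was higher in the core was also higher around it. Of the 3149 genes past 2-fold higher, 2793 were within 2-fold of the ring, 296 were past 2-fold above it and 60 were at or below a ratio of 0.5 to it. In 2310 of them the ring too was past 2-fold over far. The ring was next to spots that the score had picked, and it had its own score median of 0.411. Its highest score was 0.955, above the core median of 0.863. Of the 16 top spots not kept as core, 14 lay within 3 steps of a core spot. The ring thus cannot be read as lung without tumour.

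Within the core, few genes divided interior from edge. Of 4432 genes, 10 (0.226%) were past 2-fold higher in the interior and 116 (2.62%) lower. Among the highest were Herc4, a ubiquitin ligase, at 2.42 (1.43 to 4.13) and Lrrk2, a kinase, at 2.35 (1.38 to 4.02). Bnip3, a mitophagy gene of hypoxia, was at 2.13 (1.24 to 3.65) and B3gnt3, a glycosyltransferase, at 2.12 (1.21 to 3.70). These are extremes of 4432 genes and had only 56 to 62 counts in the core, near the minimum of 50. Bnip3 was at 0.696 CP10k in the interior, 0.327 at the edge and 0.426 in the far spots. The hypoxia list was 1.29 times its edge level in the interior (1.10 to 1.502). The lowest were the heavy chains Ighg2b, Ighg2c and Ighg1, Icam2, an endothelial adhesion protein (0.0699), and Hba-a1, an alpha globin (0.0876). Among lists, the interior over edge ratio was 0.178 for AT2 genes (0.156 to 0.203), 0.147 for red blood cell genes, 0.360 for capillary genes and 0.474 for mitochondrially encoded genes, against 0.866 for mitosis genes and 0.958 for nucleolar genes.

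Between the large and the small metastasis, 544 of 4490 genes (12.1%) were past 2-fold higher in the large metastasis and 694 (15.5%) lower. Saa3 stood at 21.7 CP10k in the large and 0.387 in the small, on 2 counts, a ratio of 56.2 (15.6 to 465). Gchfr, a regulator of biopterin synthesis, Akr1b8, an aldo-keto reductase, and Cp, ceruloplasmin, had 286, 178 and 173 counts in the large metastasis and none in the small. The regions held 1324953 and 51741 counts in all, and the lower limits of these ratios were only 3.008, 1.865 and 1.812. Genes of AT2 cells were among the lowest in the large against the small, with ratios of 0.0990 for Sftpa1, 0.105 for Sftpd and 0.127 for Cxcl15, beside Ctsh, a cathepsin, at 0.0895 and Itgax, the CD11c integrin, at 0.109. The small metastasis was 6 spots that the rule had not kept around 1 that it had, so its lung transcripts lie partly in spots outside the core. Differences between the metastases cannot be told apart from this mixture of spots.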

How the data were processed

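Unique molecule counts per gene and spot of 2 Visium sections, 1 per condition, were used as deposited. The authors made these counts with Space Ranger 1.3.1 on mm10, per the submitters' processing notes, over 32285 features. Of the deposited spot positions only those over tissue with at least 1000 counts were kept. Counts were summed over the spots of a region and divided by the region's total. Genes with at least 10 counts in both regions together (50 for interior over edge and large over small) were compared by log2 ratio with 0.5 counts added, and past 2-fold was a call of size. With 1 section per condition no test across samples was possible. Intervals are exact Poisson (levels) and exact binomial (ratios) at 95%, and a gene with 0 counts was given a bound from 3 counts over the region.

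Named genes were the 15 highest and 15 lowest ratios among genes with at least 100 counts and the same direction in both metastases, the 5 highest and lowest between large and small and between interior and edge, and members of the gene lists. Some genes that met this rule are not reported here. The rule was written for metastases of at least 5 core spots. Only 1 group of that size was found, so 7 spots around the lone core spot stood for the other. Ighg2b met the rule there through the added 0.5 counts alone. The members and lists were chosen with earlier results of these data known. Python 3.11.15, numpy 2.4.6, scipy 1.17.1, pandas 2.3.3 and matplotlib 3.10.9 were used, and the ratio and interval code was tested on simulated data.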

Additional observations from a re-analysis of the deposited data

How the results depend on the processing

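Across 26 alternatives, 4 of them chosen after seeing the data, 2158 values of 53 lists and 30 named genes were recomputed, and 4 changed sign from a called value: mesothelial genes to -0.26 (Scgb1a1-rich far spots left out) and -0.76 (control lung in place of far) from 1.02, and in the small metastasis alveolar macrophage genes to 1.26 from -1.69 and acute phase genes to -0.03 from 1.03. In the small metastasis the median of all genes was itself 0.99. The causes were not tested. Only values past 2-fold in the main setting could count among these. Lists under 2-fold changed sign more often, in 14 settings each for hypoxia response and for fatty acid uptake, storage and oxidation genes. Fibrillar matrix genes did so in 8 and ERK genes in 7. Some lists past 2-fold fell under it: complement and acute phase genes in 17 settings, B and plasma cell and mesothelial genes in 15 each, MHC class I genes in 9. The count of genes past 2-fold higher (3149) became 5260 with a minimum of 1 count, 1667 under the library size that omits abundant genes, 2065 with the Scgb1a1-rich far spots left out, and 6983 in the small metastasis, 2252 of them with 0 counts there and so from the added 0.5 counts alone. The count lower (3376) became 1216 in the small metastasis, where 85.2% of calls were higher.

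The median of all genes (0.13) was 0.30 and 0.17 with minimums of 1 and 50 counts, 0.17 with 1 count added, -0.39 without abundant genes in the library size and -0.14 also without ribosomal protein genes, 0.08 as a mean of spots, 0.06 and 0.18 from the top 60 and 100 spots, 0.18 and 0.07 with no or 4 neighbours needed, 0.10 and 0.17 with far over 3 and over 8 steps, 0.11 from spots of 5000 counts, 0.08 with Etv4 out of the score, -0.13 without the Scgb1a1-rich far spots, -0.07 against the control lung and 0.99 in the small metastasis.

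Thinning to 5000 counts per spot left out 1 core and 57 far spots. The core alone in an upper metastasis was not run, since 1 core spot lay there. No paired analysis was possible because each condition had 1 section. The small metastasis held 51741 counts, where 3 counts are 0.580 CP10k, so levels under that rest on 1 or 2 counts or none.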
